A study of Mus musculus with 4 samples.

Results

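The Tsc22d3 group comprised 7 genes of the 32285 listed for these libraries. They were the glucocorticoid receptor gene Nr3c1 and 6 genes that the receptor is known to induce: Tsc22d3, Per1, Klf9, Fkbp5, Ddit4 and Zbtb16. The genes were proposed with results of the same libraries in view, including their difference between control and liproxstatin, so their values across treatment are given as a description and without a test. Differences between cell classes were not used in that choice and were tested over all 4 libraries, so a treatment response also enters a class's level.

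The data were single-cell RNA counts from leukocytes of CT26 tumours, a mouse colon carcinoma line that grows in Balb/c mice. Both groups were 9-week-old tumour-bearing mice, and the labels name no engineered allele. One group was treated with liproxstatin-1, a small molecule that traps lipid radicals and blocks ferroptosis, for 8 days, and the other is labelled control; what the controls were given is not stated in the sources used here. Each group had 2 libraries, and nothing in the labels says that the 2 came from separate animals, so the spread between them may be technical. Cells had been selected on CD45, the common leukocyte antigen, before droplet capture.

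Glucocorticoids are steroid hormones of the adrenal cortex, mainly corticosterone in mice. They enter cells and bind the receptor encoded by Nr3c1, which leaves a chaperone complex, moves to the nucleus and raises the transcription of target genes from palindromic DNA elements. Among leukocytes this programme is best known for restraining inflammatory transcription. The 6 targets are not specific to the hormone: Per1 also belongs to the circadian clock, Ddit4 answers hypoxia and nutrient stress, and Tsc22d3 is also driven by FoxO factors in resting lymphocytes.

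All 7 genes were found in the GENCODE M21 annotation of GRCm38 under the identifiers used in the count matrices. Tsc22d3 (ENSMUSG00000031431) lies at chrX:140539528-140600659 on the minus strand, with 6 annotated transcripts that the gene-level counts do not part. Per1 (ENSMUSG00000020893) lies at chr11:69095217-69109960 on the plus strand, and Klf9 (ENSMUSG00000033863) at chr19:23141226-23168134 on the plus strand. Fkbp5 (ENSMUSG00000024222) occupies chr17:28399094-28517527 on the minus strand, and Ddit4 (ENSMUSG00000020108) chr10:59949669-59951834 on the minus strand. Zbtb16 (ENSMUSG00000066687) occupies chr9:48654297-48836222 on the minus strand.

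RefSeq promoter windows of 300 bases in GRCm38.p6, from 250 before to 50 after a start site, were at hand for 5 of the members, with 8 windows among them. Both strands were searched for the full glucocorticoid response element (AGAACA, any 3 bases, TGTTCT), its looser form (GNACA, any 3 bases, TGTNC), the half-site TGTTCT, the clock E-box CACGTG and the cyclic AMP element TGACGTCA. The full element was in 0 of the 8 windows and in 0.00913% of all 32851 windows, and the looser form in 0 of 8 and 0.475%. The half-site was in 1 member window, of Tsc22d3, against 19.0% of all windows, and every full element also holds a half-site. The E-box was in 2 member windows, of Per1 and Fkbp5, against 7.15% of all windows. The cyclic AMP element was in 0 of 8, against 1.79%. The 3 stretches that held a match are shown because the group is defined by regulation by one receptor; each gives the 250 bases before the start site, 5′ to 3′ on the gene's strand, with the matched letters in capitals. A match is a string of letters, not a bound site, and receptor binding far from a start site is outside these windows.
Tsc22d3, chrX:140600523-140600772, minus strand, half-site 185 bases before the start: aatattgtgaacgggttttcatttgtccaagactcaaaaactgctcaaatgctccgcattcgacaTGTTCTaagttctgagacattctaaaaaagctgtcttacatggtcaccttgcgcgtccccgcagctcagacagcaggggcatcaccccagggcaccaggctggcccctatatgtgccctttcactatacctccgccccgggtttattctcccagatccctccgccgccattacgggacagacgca
Per1, chr11:69098699-69098948, plus strand, E-box 166 bases before the start: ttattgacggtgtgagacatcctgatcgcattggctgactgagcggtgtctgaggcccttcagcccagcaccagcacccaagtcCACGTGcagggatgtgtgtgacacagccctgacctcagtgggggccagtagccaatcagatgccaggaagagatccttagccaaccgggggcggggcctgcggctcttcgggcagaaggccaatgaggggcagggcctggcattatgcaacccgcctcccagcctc
Fkbp5, chr17:28486150-28486399, minus strand, E-box 169 bases before the start: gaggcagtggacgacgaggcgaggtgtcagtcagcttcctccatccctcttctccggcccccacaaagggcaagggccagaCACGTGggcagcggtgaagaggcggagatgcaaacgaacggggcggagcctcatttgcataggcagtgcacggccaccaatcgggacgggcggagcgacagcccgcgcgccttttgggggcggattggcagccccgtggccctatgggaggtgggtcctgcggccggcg

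Cells were assigned to classes by the number of fixed marker genes detected, and a class name below means cells past that marker gate. After filters, 25730 cells were used, and 20622 of them fell into 11 classes that had 20 or more cells per library. The 108 B cells were too few in 1 library for a fit. Total UMIs (unique molecular identifiers, 1 per captured transcript) ran from 83129874 to 168597163 per library, and cells used from 3753 to 8061. The median neutrophil marker was detected in 90.5% of neutrophils and the median macrophage marker in 99.0% of macrophages. The gates used these same markers, so such shares follow from the gating and do not test the class names. In conventional dendritic cells the median macrophage marker was detected in 36.1% of cells. The medians there for type 1, type 2 and migratory dendritic cell markers were 62.2%, 24.0% and 21.2%. The mast cell and basophil gate held both cell types, and the share of its cells with the basophil gene Mcpt8 was 28.2% and 6.45% in controls and 14.3% and 10.3% with liproxstatin. Median UMIs per cell were lowest in liproxstatin replicate 2 in all fitted classes, for example 24178 in macrophages against 32041 and 33447 in controls. 67 barcodes occurred in 2 libraries. Levels are given in CPM, in which each gene's UMIs are scaled to a common total per class and library.

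Tsc22d3, which encodes the glucocorticoid-induced leucine zipper GILZ, was higher in both liproxstatin libraries than in both controls in all 11 classes. In neutrophils it measured 102 and 85.1 CPM in the controls and 215 and 260 CPM with liproxstatin, a fitted log2 fold change of 1.41 ± 0.22 (SE, 2 libraries per group). In macrophages the controls gave 57.0 and 53.5 CPM and the liproxstatin libraries 120 and 126 CPM, with 1.20 ± 0.09. In CD8 T cells the 4 values were 58.2, 56.2, 201 and 188 CPM, in the same order, with 1.77 ± 0.11. The groups were separated in each of these classes by more than the libraries of a group differed.

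The difference was numerically largest in plasmacytoid dendritic cells, the main type I interferon producers, at 84.8 and 80.3 CPM in controls against 308 and 360 CPM (log2 fold change 2.02 ± 0.17). The fitted value was smallest in CD4 T cells, at 181 and 202 against 508 and 397 CPM (1.15 ± 0.22). Whether classes differed in this response was not tested. Over the 11 classes the ratio of group means ran from 2.23 to 4.04, with a median of 2.84. The 2 controls differed by a median of 0.13 on the log2 scale. Gamma-delta T cells had a wider control pair, at 43.6 and 85.7 CPM, and mast cells and basophils the widest, at 54.6 and 154 CPM. The lower of the mast cell values came from the library with the larger share of Mcpt8-positive cells, whose part in it was not tested; leaving out either control moved their log2 fold change from 1.23 to 0.71 or 2.23.

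The share of positive cells was examined next. The share of cells with at least 1 Tsc22d3 UMI was higher in both liproxstatin libraries in all 11 classes, and again in all 11 after every cell was thinned to 2000 UMIs. In neutrophils it was 20.7% (95% exact binomial interval 12.9% to 30.4%) and 21.9% (17.9% to 26.2%) in controls, and 37.5% (33.4% to 41.6%) and 37.0% (32.0% to 42.3%) with liproxstatin. After thinning, which left out 119 of the 1391 neutrophils, the shares were 11.2%, 16.4%, 28.9% and 32.5%. These intervals cover counting error only. No class lacked the gene, so none gave a background share. Among 24 unsupervised clusters with at least 20 cells in every library, 23 had both liproxstatin libraries above both controls, including 7 of 7 macrophage clusters, and 0 had both below. The remaining cluster, which took no class name, had 27.5 and 28.8 CPM in controls against 39.4 and 28.7 CPM.

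**Figure D1:**
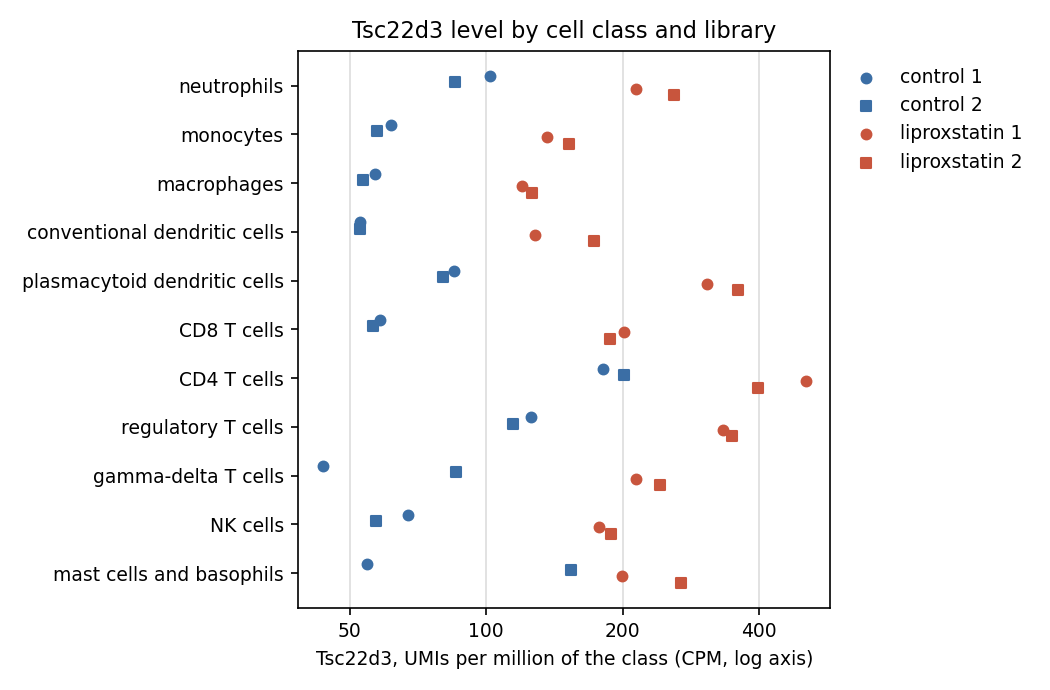
Tsc22d3 level (CPM, log axis) in each of 11 cell classes, 1 point per library: circles for replicate 1, squares for replicate 2, blue for control, red for liproxstatin. In every class both red points lie to the right of both blue points; mast cells and basophils have the widest control pair, 54.6 and 154 CPM.

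Between classes, Tsc22d3 was above the mean of the other classes in CD4 T cells by 1.03 ± 0.12 on the log2 scale (adjusted p = 9.1e-10) and below it in macrophages by -0.80 ± 0.11 (adjusted p = 6.4e-09). These are edgeR quasi-likelihood tests over control and liproxstatin libraries together, with the library as a block and Benjamini-Hochberg adjustment over all genes. Over the 7 members, 23 of 77 gene and class pairs were called higher and 23 lower, against 29.8% and 22.7% of all pairs tested. The share of higher calls was near that of all pairs, and the share of lower calls was somewhat above it. Scaling between classes (TMM, which corrects for a few abundant genes) used factors of 0.464 to 0.663 in neutrophils and 0.868 to 1.26 elsewhere, and so raised neutrophil levels relative to library totals. 19 of the higher and 22 of the lower calls stood under TMM, DESeq2 size factors and plain totals, the last chosen after seeing the data. Tsc22d3 in neutrophils was among those that did not: it was above the other classes by 1.18 ± 0.11 with TMM and by 0.13 without.

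By the mean over libraries of log2(TMM-scaled CPM + 1), the order of Tsc22d3 ran from neutrophils and CD4 T cells through regulatory T cells, mast cells and basophils, plasmacytoid dendritic cells, gamma-delta T cells, CD8 T cells, NK cells, monocytes and conventional dendritic cells to macrophages. Of the 10 neighbours in that order, 2 differed: CD4 T cells exceeded regulatory T cells by 0.65 ± 0.16 (edgeR quasi-likelihood, adjusted p = 0.0068), and plasmacytoid dendritic cells exceeded gamma-delta T cells by 0.47 ± 0.17 (adjusted p = 0.024). The other neighbours were not separated beyond their spread; the fit put mast cells and basophils slightly above regulatory T cells, the reverse of this order, with a difference of -0.06 ± 0.18. B cells, outside the fit, had 539 and 401 CPM in controls and 939 and 551 CPM with liproxstatin.

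Per1 encodes a repressor of the circadian clock that is also an immediate target of the receptor. Both liproxstatin libraries lay above both controls in 9 of 11 classes. In macrophages it measured 8.66 and 7.23 CPM in controls and 25.5 and 22.3 CPM with liproxstatin, a log2 fold change of 1.64 ± 0.11. In neutrophils the controls gave 147 and 101 CPM and the liproxstatin libraries 203 and 250 CPM, with 0.96 ± 0.23. The groups overlapped in CD4 T cells, at 39.1 and 14.3 against 37.9 and 30.7 CPM, and in regulatory T cells, at 38.2 and 10.4 against 39.7 and 26.9 CPM; in both, the first control was as high as liproxstatin. Without control replicate 2 the log2 fold change turned from 0.47 to -0.31 in CD4 T cells and from 0.58 to -0.20 in regulatory T cells.

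Neutrophils carried the most Per1. Their level exceeded the mean of the other classes by 4.22 ± 0.12 on the log2 scale (edgeR quasi-likelihood, adjusted p = 2.5e-31), and by 3.16 with library totals. They exceeded monocytes, next in order, by 3.41 ± 0.14 (adjusted p = 1.3e-25). Monocytes were above the other classes by 0.48 ± 0.11 (adjusted p = 0.00013), whereas NK cells were below them by -0.98 ± 0.15 (adjusted p = 3.0e-07). Of the 16 other clock genes, which give 76 tested pairs with a class, 1 was called higher and 3 lower with liproxstatin, or 1.32% and 3.95%, against 0.367% and 0.198% of all pairs. Dbp, a clock output gene, fell in macrophages from 7.28 and 9.31 CPM to 3.92 and 4.56 CPM (log2 fold change -0.93 ± 0.14, edgeR adjusted p = 0.0098), opposite in sign to Per1 in the same cells. That call was lost without either liproxstatin library.

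Klf9, a Krüppel-like transcription factor gene and classical receptor target, had its largest fitted difference in gamma-delta T cells. Its level there was 8.17 and 9.89 CPM in controls and 49.2 and 57.7 CPM with liproxstatin, a log2 fold change of 2.53 ± 0.43 that rests on 9 and 57 UMIs. Monocytes had 8.90 and 11.6 against 31.6 and 27.8 CPM (1.58 ± 0.15), and macrophages 5.10 and 6.04 against 13.4 and 11.3 CPM (1.18 ± 0.12). In CD8 T cells the values were 9.16 and 5.47 against 21.0 and 14.5 CPM. These groups did not overlap, nor did those of 4 further classes. Among these, mast cells and basophils had 0 and 5.91 against 31.2 and 18.4 CPM, too few UMIs (3 and 19) to be fitted.

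The Klf9 groups overlapped in neutrophils, at 14.2 and 4.35 against 9.96 and 5.89 CPM, and in conventional dendritic cells, at 6.88 and 3.56 against 2.05 and 5.36 CPM. Plasmacytoid dendritic cells were nearly without Klf9, with 1 UMI in the controls and 1 with liproxstatin, although they showed the largest Tsc22d3 difference. Against the other classes their Klf9 level was lower by -4.74 ± 0.85 on the log2 scale (edgeR quasi-likelihood, adjusted p = 1.0e-05). Gamma-delta T cells were higher by 1.75 ± 0.39 (adjusted p = 0.00044) and monocytes by 1.31 ± 0.17 (adjusted p = 2.2e-08). These contrasts pool control and liproxstatin libraries. In the controls alone gamma-delta T cells had a mean of 9.03 CPM and ranked 4, below CD4 T cells (14.1), monocytes (10.2) and neutrophils (9.26).

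Fkbp5 encodes a co-chaperone that lowers the receptor's affinity for hormone and closes a negative feedback loop. In monocytes it measured 4.90 and 6.04 CPM in controls and 18.2 and 14.5 CPM with liproxstatin, a log2 fold change of 1.62 ± 0.18. In macrophages the values were 10.4 and 11.01 against 25.1 and 18.1 CPM, with 1.05 ± 0.14. NK cells had 28.2 and 28.5 against 41.6 and 42.4 CPM, a smaller difference (0.57 ± 0.14) between pairs that barely differed within themselves. The groups were apart in 8 of 11 classes.

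Gamma-delta T cells, with the largest fitted Klf9 and Per1 differences, had overlapping Fkbp5 values, at 40.8 and 28.0 against 34.9 and 31.1 CPM (0.03 ± 0.38). Their Per1 difference (2.34 ± 0.76) rests on 4 and 23 UMIs, and the share of Per1-positive cells overlapped after thinning. Plasmacytoid dendritic cells overlapped as well, at 16.7 and 39.5 against 65.9 and 34.6 CPM, and so did mast cells and basophils. Between classes Fkbp5 was higher in plasmacytoid dendritic cells by 0.82 ± 0.21 (edgeR quasi-likelihood, adjusted p = 0.00088) and in NK cells by 0.72 ± 0.13 (adjusted p = 4.9e-06). It was lower in monocytes by -0.94 ± 0.13 (adjusted p = 5.3e-08). 0 of its 10 neighbouring classes in order of level differed.

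Ddit4 encodes REDD1, an inhibitor of the growth kinase complex mTORC1. Regulatory T cells had 249 and 144 CPM in controls and 405 and 358 CPM with liproxstatin, a log2 fold change of 0.98 ± 0.23. CD8 T cells had 131 and 68.0 against 198 and 180 CPM, with 0.94 ± 0.42. NK cells had 45.2 and 76.3 against 110 and 116 CPM, with 0.89 ± 0.26. The groups were apart in these lymphocytes, although the 2 CD8 T cell controls differed by 0.95 on the log2 scale, as much as the groups did. In neutrophils the values were 51.0 and 88.2 against 71.2 and 55.0 CPM (-0.21 ± 0.27), in monocytes 58.1 and 57.3 against 84.4 and 56.8 CPM, and in CD4 T cells 114 and 114 against 183 and 112 CPM; in these 3 classes the groups overlapped.

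Ddit4 levels also differed between classes. Regulatory T cells exceeded the mean of the other classes by 2.34 ± 0.21 on the log2 scale (edgeR quasi-likelihood, adjusted p = 6.2e-11) and CD8 T cells by 1.44 ± 0.16 (adjusted p = 2.2e-09). Macrophages were below the others by -2.44 ± 0.25 (adjusted p = 3.3e-10), mast cells and basophils by -2.0 ± 0.63 (adjusted p = 0.011, a call kept under 7 of 10 alternatives, with adjusted p up to 0.69) and plasmacytoid dendritic cells by -1.91 ± 0.41 (adjusted p = 0.0002). Regulatory T cells also exceeded CD8 T cells by 0.81 ± 0.23 (adjusted p = 0.0057).

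Zbtb16 encodes PLZF, the factor that directs innate-like T cell development, and it was highest in gamma-delta T cells. Gamma-delta T cells had 24.5 and 11.5 CPM in controls and 42.9 and 42.2 CPM with liproxstatin (log2 fold change 1.38 ± 0.44, from 16 and 46 UMIs). This was the 1 class of 11 in which its groups did not overlap. NK cells had 7.57 and 4.33 against 7.20 and 4.20 CPM, a log2 fold change of 0.00 ± 0.36. CD4 T cells had 7.11 and 4.77 against 4.46 and 5.33 CPM, from 5 and 6 UMIs.

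No Zbtb16 UMI was counted in regulatory T cells, plasmacytoid dendritic cells, or mast cells and basophils. Over the 396 regulatory T cells this allows a share of cells with a UMI of up to 0.758%, at a median of 5424 UMIs per cell, against 22.7% of the 176 gamma-delta T cells at a median of 9171. Against the other classes, gamma-delta T cells were higher by 6.73 ± 0.46 (edgeR quasi-likelihood, adjusted p = 7.9e-16) and NK cells by 4.17 ± 0.43 (adjusted p = 3.7e-11). By the same test neutrophils were higher by 5.22 ± 0.65 (adjusted p = 2.3e-09, from 25 UMIs). CD4 T cells were higher by 4.03 ± 0.88 (edgeR quasi-likelihood, adjusted p = 0.00034, from 11 UMIs). Since several classes are at 0, these fitted sizes depend on the prior count. In macrophages 77 UMIs in 10035 cells were spread over both groups.

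Nr3c1 (ENSMUSG00000024431, chr18:39410545-39519421, minus strand), the receptor itself, differed little with treatment in neutrophils, monocytes, macrophages and both dendritic cell classes, where the groups overlapped. In macrophages it measured 56.8 and 62.0 CPM in controls and 62.7 and 59.2 CPM with liproxstatin, a log2 fold change of 0.08 ± 0.08. In neutrophils the values were 150 and 142 against 147 and 149 CPM, with 0.06 ± 0.21. Both pairs overlapped while Tsc22d3 in the same cells stood 2.23-fold and 2.54-fold higher.

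Of the 5 lymphocyte classes, 4 had both liproxstatin libraries above both controls. In regulatory T cells Nr3c1 measured 162 and 128 CPM in controls and 277 and 233 CPM with liproxstatin (0.83 ± 0.21), and in CD8 T cells 104 and 75.3 against 135 and 117 CPM (0.50 ± 0.15). NK cells and gamma-delta T cells were the others, whereas CD4 T cells overlapped at 320 and 186 against 259 and 212 CPM (-0.16 ± 0.28). Mast cells and basophils went the other way, at 159 and 171 against 115 and 100 CPM (-0.53 ± 0.24). Between classes Nr3c1 was higher in neutrophils by 1.57 ± 0.13 (edgeR quasi-likelihood, adjusted p = 2.4e-13; 0.51 with library totals) and in CD4 T cells by 1.05 ± 0.14 (adjusted p = 2.2e-07). It was lower in conventional dendritic cells by -1.03 ± 0.13 (adjusted p = 3.9e-08), NK cells by -1.01 ± 0.11 (adjusted p = 7.5e-10) and macrophages by -0.92 ± 0.09 (adjusted p = 6.9e-11).

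**Figure D2:**
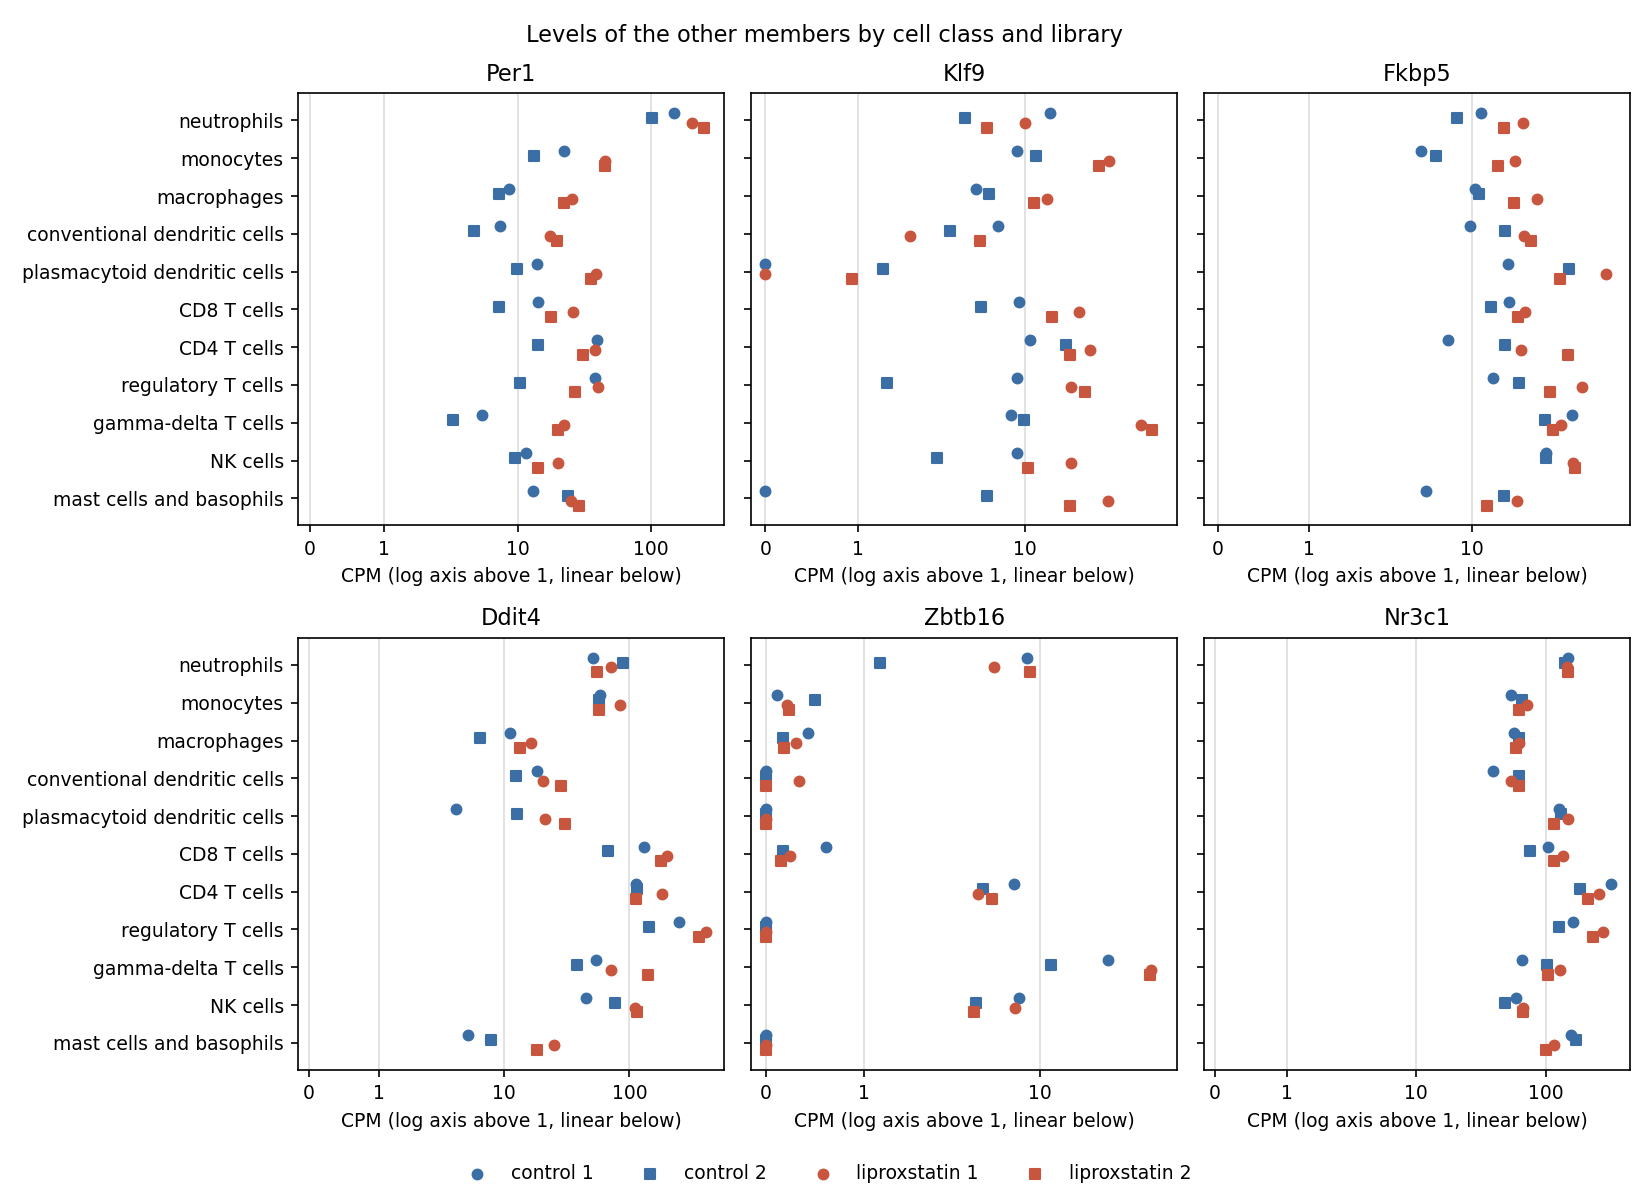
CPM of Per1, Klf9, Fkbp5, Ddit4, Zbtb16 and Nr3c1 in each of 11 classes, 1 point per library (circles replicate 1, squares replicate 2; blue control, red liproxstatin; axis logarithmic above 1 and linear below). Per1 stands out in neutrophils, Zbtb16 in gamma-delta T cells at up to 42.9 CPM, and the colours are mixed for Nr3c1 in most myeloid classes.

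Counted over all 7 members and 11 classes, 49 of 77 pairs had both liproxstatin libraries above both controls and 1 had both below. Over all genes that passed the count filter, the shares were 16.8% and 22.2%. The filter was passed by 66 of the 77 pairs, and of these 66, 47 had both liproxstatin libraries above both controls and 1 both below. Of the 77 pairs, 72 had more than 3 UMIs in at least 1 group. Since the members were picked with this contrast known, nothing is read from the excess. By gene, the number of classes with separated, higher liproxstatin values was 11 for Tsc22d3, 9 for Per1, 8 each for Klf9, Fkbp5 and Ddit4, 4 for Nr3c1 and 1 for Zbtb16. The median fitted log2 fold changes over the classes fitted were 1.52 for Tsc22d3, 1.14 for Per1, 1.38 for Klf9, 0.95 for Fkbp5, 0.85 for Ddit4 and 0.22 for Nr3c1, while the median of all genes in a class lay between -0.01 and 0.01.

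**Figure D3:**
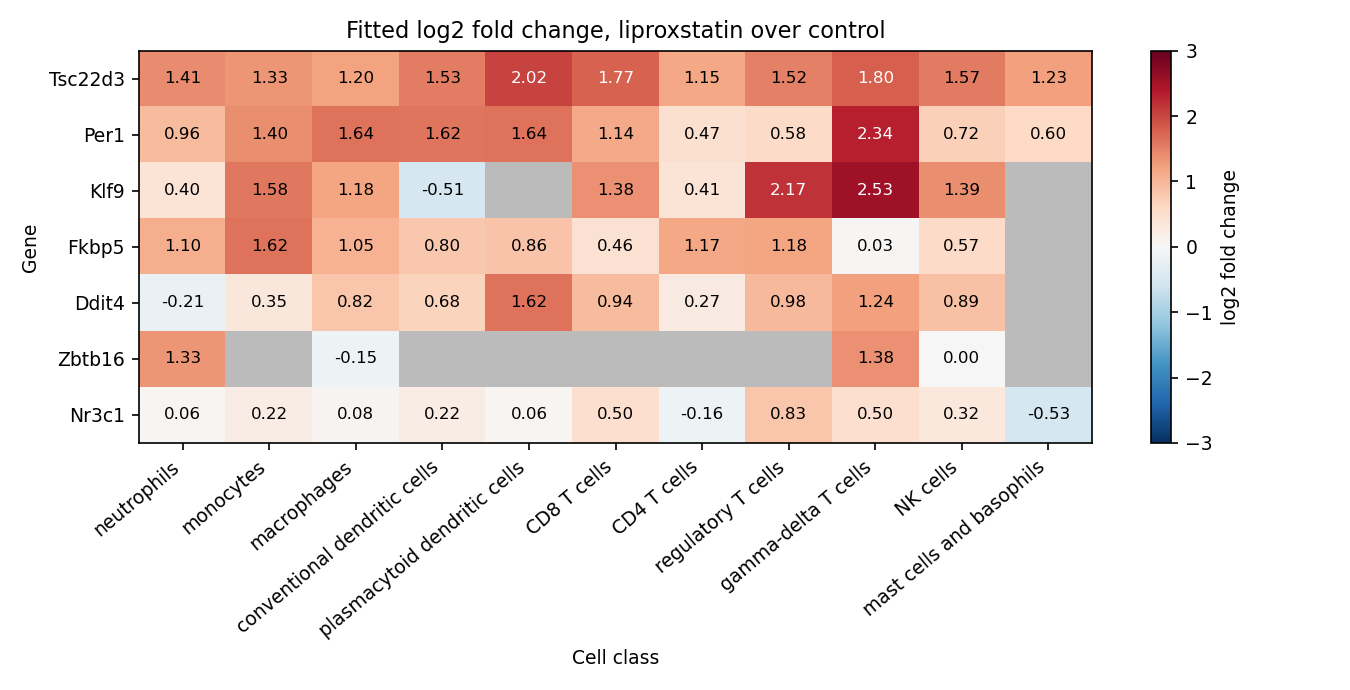
Fitted log2 fold change (liproxstatin over control) of the 7 members in 11 classes; red is higher and blue lower with liproxstatin, and grey marks pairs that did not pass the count filter. Tsc22d3 runs from 1.15 to 2.02, Klf9 from -0.51 in conventional dendritic cells to 2.53 in gamma-delta T cells, and Nr3c1 from -0.53 to 0.83.

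In the control libraries alone, classes with more Nr3c1 also had more Tsc22d3. Over the 11 classes the log2 CPM levels had a Pearson r of 0.93 and a Spearman rho of 0.88. Without the 2 classes farthest from the median Nr3c1 level, CD4 T cells and mast cells and basophils, r was 0.88. The points share their 2 libraries and the CPM denominator of each class, so this is a description. The Nr3c1 level of a class in the controls had no such relation to its Tsc22d3 log2 fold change (r -0.17, rho -0.33).

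**Figure D4:**
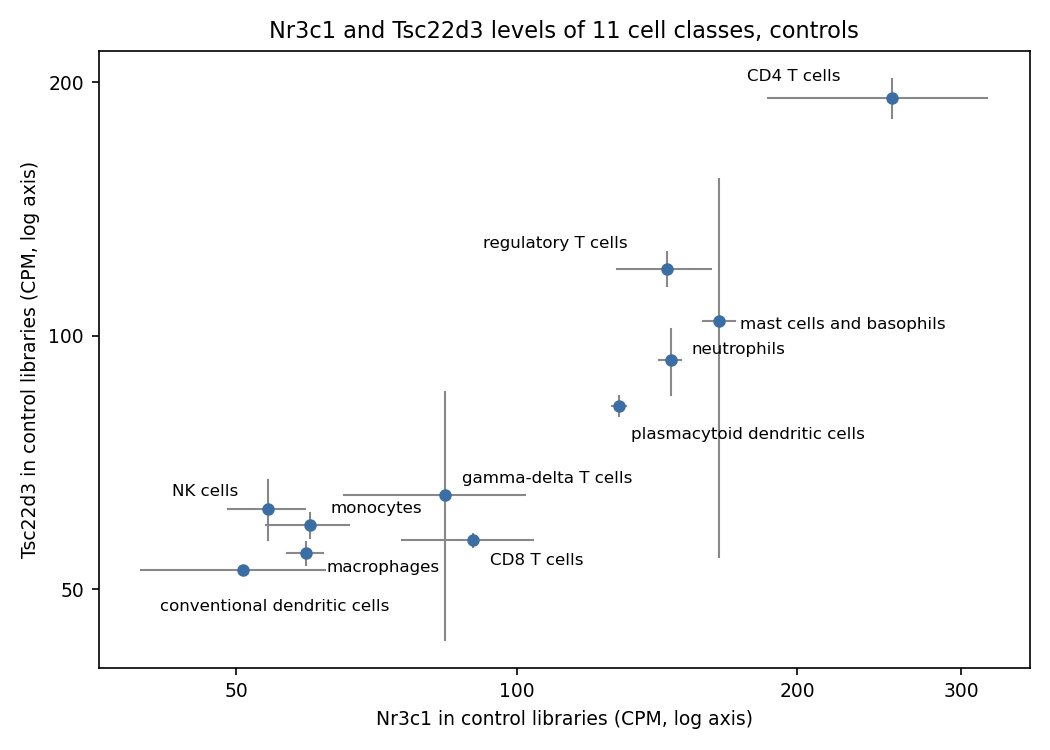
Nr3c1 (x axis) and Tsc22d3 (y axis) levels in the control libraries, CPM on log axes, 1 point per class at the mean of the 2 controls, with lines joining the 2 control values. Levels rise together from conventional dendritic cells at the lower left to CD4 T cells at the upper right; mast cells and basophils have the widest Tsc22d3 spread.

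The 10 genes most like Tsc22d3 over the 44 class and library sums, by Pearson r of log2 CPM, were led by Zfp36l2 (0.79), an RNA-decay factor gene that is itself glucocorticoid-inducible. The others were 4632427E13Rik, Per1 (0.70), Brd1, Cnot4, Dnaja1, Tnfaip3, Atxn7, Paxbp1 and Nr3c1 (0.66), out of 10738 genes. With each class mean taken off, Zfp36l2 (0.85) and Per1 (0.83) led again, followed by Malt1, Klf6, Nsd3, Cytip, Tpt1, Rsrp1, mt-Nd4 and Safb2. Ddit4 then ranked 13, Fkbp5 38, Klf9 112, Nr3c1 403 and Zbtb16 3262. The sums share libraries and depth, and the second ranking follows the treatment contrast that chose the members.

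Beyond the members, 33 other genes known to be induced by glucocorticoids were examined, a list also assembled with earlier results known. Of 239 tested pairs of gene and class, 13 were called higher with liproxstatin and 2 lower, or 5.44% and 0.837%, against 0.367% and 0.198% of all pairs. As for the members, nothing is read from this excess, since the list was assembled with the contrast known. Of the 239 pairs, 110 had both liproxstatin libraries above both controls and 20 both below, against 16.8% and 22.2% of all pairs. Such separation was not particular to this list. Of immediate early and dissociation genes, 91 of 212 pairs were above and 14 below. Chaperones, coregulators and steroid-metabolising enzymes had 70 and 20 of 190, and FoxO and quiescence genes 39 and 16 of 111. Hypoxia and integrated stress genes had 28 and 20 of 115, and other clock genes 17 and 19 of 76. Some genes, such as Dusp1, Il7r and Txnip, are in 2 of these lists. The median log2 fold change of the glucocorticoid-inducible list was above 0 in all 11 classes, from 0.09 in neutrophils to 1.10 in mast cells and basophils.

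Zfp36l2 rose in 3 classes. In regulatory T cells it went from 370 and 235 CPM to 1341 and 1145 CPM (log2 fold change 2.05 ± 0.21, edgeR adjusted p = 0.00022), in mast cells and basophils by 2.30 ± 0.19 (adjusted p = 0.00021) and in plasmacytoid dendritic cells by 1.41 ± 0.16 (adjusted p = 8.1e-05). The last call was lost without liproxstatin replicate 2, with Leiden clusters as classes and with the replicate block, with adjusted p up to 0.95. Its liproxstatin libraries were above both controls in all 11 classes, as for Tsc22d3. Dusp1, which encodes a phosphatase that switches off p38 and JNK kinases, rose in macrophages from 397 and 345 CPM to 713 and 666 CPM (0.93 ± 0.10, adjusted p = 0.0014). Tgm2, encoding transglutaminase 2, rose there by 0.82 ± 0.09 (adjusted p = 0.0014) and Cebpb, a myeloid transcription factor gene, by 0.67 ± 0.12 (adjusted p = 0.018). The macrophage calls were all lost when either liproxstatin library was left out, when macrophages gave 0 called genes of any kind.

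In mast cells and basophils Cebpb, Cdkn1a and Glul also rose, by 1.90 ± 0.26, 1.71 ± 0.27 and 2.13 ± 0.38 (edgeR adjusted p = 0.01, 0.02 and 0.044), and Dusp1 by 1.00 ± 0.18 (adjusted p = 0.049, and 0.063 without liproxstatin replicate 1). Cdkn1a encodes the cell cycle inhibitor p21 and Glul glutamine synthetase. In CD8 T cells Il7r, the survival receptor for interleukin 7, rose from 60.4 and 69.6 CPM to 122 and 114 CPM (0.85 ± 0.12, adjusted p = 0.0018), and Txnip, a glucose-responsive inhibitor of thioredoxin, by 0.86 ± 0.15 (adjusted p = 0.025). In plasmacytoid dendritic cells the chemokine receptor gene Cxcr4 rose from 45.9 and 15.5 CPM to 190 and 183 CPM (2.60 ± 0.30, adjusted p = 0.0031), and Txnip fell by 0.71 ± 0.15 (adjusted p = 0.018). Cd163, a scavenger receptor gene that glucocorticoids raise in macrophages, fell in monocytes from 18.0 and 14.8 CPM to 3.78 and 5.04 CPM (-1.84 ± 0.19, adjusted p = 0.0065). The Cxcr4, Cd163 and both Txnip calls were each lost under several alternatives, with adjusted p up to 0.95 for Cxcr4 and 0.80 for Cd163; the Il7r, Cdkn1a and Glul calls and that of Zfp36l2 in regulatory T cells were kept under all 10 run.

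**Figure D5:**
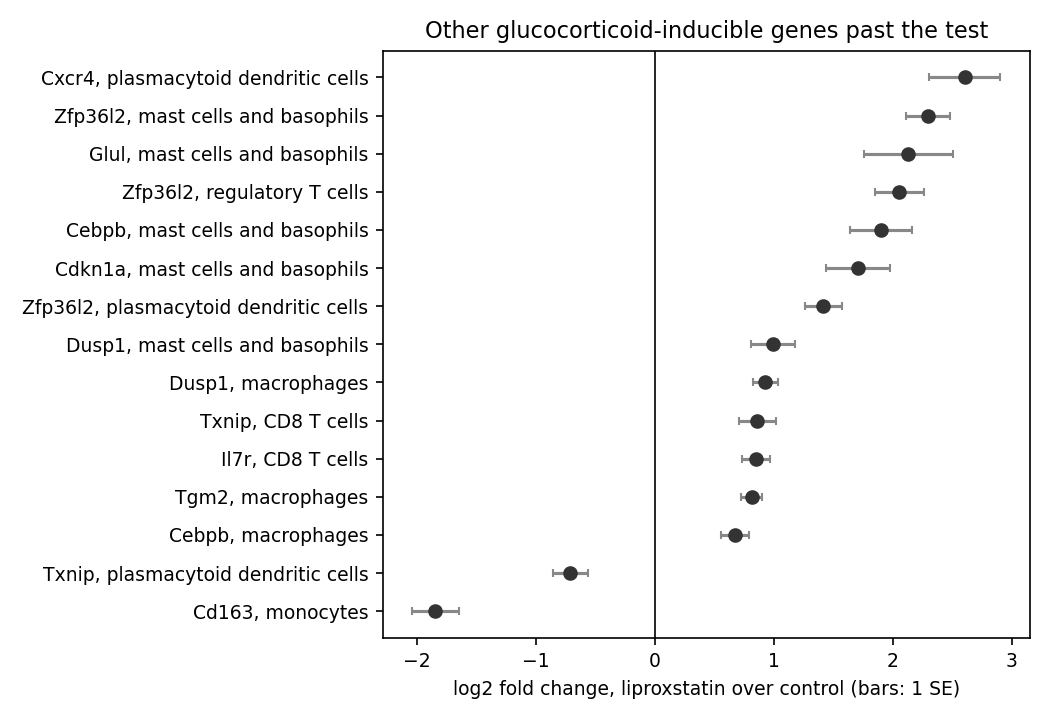
The 15 pairs of class and other glucocorticoid-inducible gene past the test, by log2 fold change (liproxstatin over control; bars are 1 SE, 2 libraries per group). 13 lie above 0, led by Cxcr4 in plasmacytoid dendritic cells at 2.60, and 2 below, Cd163 in monocytes at -1.84 and Txnip in plasmacytoid dendritic cells at -0.71.

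Of 16 inflammatory genes that glucocorticoids are known to repress, with 115 pairs, 5 were called higher and 0 lower by edgeR. These are 4.35% and 0%, against 0.367% and 0.198% of all pairs. Of the 115 pairs, 23 had both liproxstatin libraries above both controls and 14 both below, against 16.8% and 22.2% of all pairs. Cxcl10, an interferon-induced chemokine gene, rose in neutrophils from 85.0 and 99.4 CPM to 218 and 248 CPM (log2 fold change 1.34 ± 0.22, edgeR adjusted p = 0.04), in regulatory T cells by 2.74 ± 0.32 (adjusted p = 0.0028) and in gamma-delta T cells by 1.54 ± 0.28 (adjusted p = 0.031). Icam1, an adhesion molecule gene, rose in neutrophils by 1.53 ± 0.27 (adjusted p = 0.04) and the neutrophil chemokine gene Cxcl2 in mast cells and basophils by 3.13 ± 0.44 (adjusted p = 0.017). Each of these 5 calls was lost under at least 2 alternatives, the neutrophil ones without liproxstatin replicate 2. The summed CPM of the list overlapped between groups in 8 of 11 classes.

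Around the receptor, 21 genes for its chaperones, coregulators and steroid-metabolising enzymes gave 2 higher and 0 lower calls in 190 pairs. These are 1.05% and 0%, against 0.367% and 0.198% of all pairs. The summed CPM of the list was above both controls in 10 of 11 classes and below in 0. Of the 190 pairs, 70 had both liproxstatin libraries above both controls and 20 both below, against 16.8% and 22.2% of all pairs. The list's median log2 fold change was above 0 in all 11 classes, from 0.09 to 0.20. Hsp90aa1, a subunit of the chaperone that holds the receptor ready for hormone, rose in macrophages by 0.43 ± 0.10 (edgeR adjusted p = 0.044), and the corepressor gene Nrip1 in gamma-delta T cells by 1.43 ± 0.28 (adjusted p = 0.048). The first call was lost under 4 alternatives, among them leaving out either liproxstatin library, and the second with DESeq2, with equal cells and without liproxstatin replicate 1 (adjusted p up to 0.45 and 0.32). The 10 genes of glucocorticoid synthesis gave 0 calls in either direction among 32 pairs. Among the synthesis genes, Cyp11a1, the first enzyme of steroid synthesis, was abundant in mast cells and basophils at 1230 and 1025 CPM in controls and 1026 and 1033 CPM with liproxstatin. Hsd11b1 is of the metabolising enzymes and regenerates active corticosterone. In plasmacytoid dendritic cells it measured 145 and 116 CPM in controls and 112 and 99.0 CPM with liproxstatin. Other classes carried it too, with 72.9 and 75.1 CPM in NK cells and 58.4 and 55.1 CPM in regulatory T cells of controls. Macrophages of controls had 0.215 and 0.185 CPM. Cyp11a1 and Hsd11b1 were singled out after their values were seen.

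Other features moved with treatment in some of the classes, and their part in the member values was not tested. The summed CPM of 20 immediate early and dissociation genes was above both controls in 6 of 11 classes and overlapped in neutrophils, plasmacytoid dendritic cells, CD8, regulatory and gamma-delta T cells. In gamma-delta T cells the list's median log2 fold change was 0.71 nonetheless, with 8 genes higher in both liproxstatin libraries and 0 lower. Of 212 pairs of that list, 7 were called higher and 0 lower, or 3.30% and 0%, against 0.367% and 0.198% of all pairs. The calls of Dusp1 in macrophages and in mast cells and basophils are among these and were also counted above as glucocorticoid-inducible. Over all 11 classes the list's median log2 fold change was above 0. The FoxO and quiescence list gave 3 higher and 4 lower calls in 111 pairs (2.70% and 3.60%, against 0.367% and 0.198% of all pairs). Its calls of Il7r and Txnip in CD8 T cells and of Txnip in plasmacytoid dendritic cells were also counted above as glucocorticoid-inducible. The summed CPM of that list was above both controls in 8 of 11 classes and below in 0. Its median log2 fold change was above 0 in 10 classes. Hypoxia and integrated stress genes gave 1 and 0 calls in 115 pairs (0.870% and 0%). Their summed CPM was above both controls in 5 classes and below in 2. The median mitochondrial share of UMIs per cell, a sign of RNA quality, was above both controls in both liproxstatin libraries in 9 of 11 classes, for example 2.95% and 3.24% against 3.33% and 3.70% in macrophages. Summed macrophage markers were lower with liproxstatin in 6 of 11 classes and higher in 1. Summed B cell markers were higher with liproxstatin in 0 of the 11 classes and lower in 3. Summed regulatory T cell markers, 4 genes, were higher in 8, among them neutrophils (0 and 1.24 against 6.97 and 7.86 CPM) and CD8 T cells (531 and 352 against 697 and 596 CPM).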

How the data were processed

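Single-cell libraries of CD45-selected CT26 tumour cells were analysed, 2 control and 2 liproxstatin. The deposited values are counts: whole UMI counts per gene and barcode, not normalized, per the file headers. Their header carries version 6.1.1 of Cell Ranger. The notes of the submitters instead give version 4, with build mm10, and this difference was not resolved. Cells with at least 200 genes and under 15% mitochondrial UMIs were kept, and the cells with the highest Scrublet scores (scanpy 1.11.5), 0.8% per 1000 barcodes, were left out as doublets. Classes were gated on fixed markers (at least 5 of 8 for neutrophils and 7 of 8 for macrophages, for example). Of the 20622 cells gated into fitted classes, 19741 lay in Leiden clusters that took a class name. In 92.9% of those 19741 the cluster had the same name as the gate. Counts were summed per class and library and fitted with edgeR 4.0.16 (filterByExpr, TMM, quasi-likelihood, R 4.3.3), each class alone for treatment, and all classes with the library as a block for levels. Adjusted p-values are Benjamini-Hochberg over all genes of a contrast, with a threshold of 0.05. The fits were tested on simulated data. The members and gene lists were chosen with earlier results of these data known. The figures show all members in every class, and the text prints values for some classes. The 10 genes most like Tsc22d3 are named. For the other lists, the rule was up to 4 called genes per list and class by size of change. It was not followed throughout: some such genes are not named, and Dusp1 in mast cells and basophils is named beyond it. Alternatives were DESeq2 1.42.0, no count filter, Leiden clusters, doublets kept, equal cells per library, a replicate block, leaving out each library, thinning, and library totals.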

Additional observations from a re-analysis of the deposited data

Results flagged for a closer look

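Nr3c1 differed in opposite directions in 2 classes. Both liproxstatin libraries lay below both controls in mast cells and basophils (log2 fold change -0.53 ± 0.24, 159 and 171 against 115 and 100 CPM) and above both controls in regulatory T cells (0.83 ± 0.21, 162 and 128 against 277 and 233 CPM). The difference between the classes was not tested.

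Txnip was called lower in plasmacytoid dendritic cells (log2 fold change -0.71 ± 0.15, 288 and 323 against 178 and 192 CPM, edgeR adjusted p = 0.018) and higher in CD8 T cells (0.86 ± 0.15, 60.0 and 88.8 against 139 and 136 CPM, edgeR adjusted p = 0.025). The difference between the 2 responses was not tested. Both calls were lost without either liproxstatin library. The first was also lost with DESeq2, with the replicate block and without control replicate 2, and the second with Leiden clusters as classes.

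Cells that passed no marker gate, and so entered no fit by gated class, also had more Tsc22d3 in both liproxstatin libraries when pooled. They had 69.2 and 76.0 CPM in controls and 174 and 177 CPM with liproxstatin, over 906, 991, 1273 and 1099 cells. Of 3 Leiden clusters that took no class name and had at least 20 cells in every library, 2 were separated as well. The other, of 600, 415, 517 and 177 cells, overlapped at 27.5 and 28.8 against 39.4 and 28.7 CPM.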

How the results depend on the processing

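The numbers of genes called for treatment were unstable with 2 libraries per group. As reported they were 6 in neutrophils, 9 in monocytes, 337 in macrophages, 1 in conventional dendritic cells, 24 in plasmacytoid dendritic cells, 92 in CD8 T cells, 1 in CD4 T cells, 7 in regulatory T cells, 21 in gamma-delta T cells, 5 in NK cells and 19 in mast cells and basophils. Under other settings, those that moved by over 1.5 times are given. With DESeq2 they became 3 in neutrophils, 41 in monocytes, 14 in conventional dendritic cells, 3 in plasmacytoid dendritic cells, 3 in CD4 T cells, 4 in regulatory T cells and 13 in NK cells. Without the count filter there were 55 in neutrophils, 302 in monocytes, 1040 in macrophages, 71 in conventional dendritic cells, 60 in plasmacytoid dendritic cells, 378 in CD8 T cells, 83 in CD4 T cells, 78 in regulatory T cells, 140 in gamma-delta T cells, 132 in NK cells and 88 in mast cells and basophils. With Leiden clusters as classes there were 13 in neutrophils, 15 in conventional dendritic cells, 13 in plasmacytoid dendritic cells and 142 in CD8 T cells. With doublets kept there were 0 in neutrophils, 9 in conventional dendritic cells, 15 in plasmacytoid dendritic cells, 5 in CD4 T cells and 57 in mast cells and basophils. With equal cells per library there were 0 in neutrophils, 14 in monocytes, 2 in conventional dendritic cells, 14 in plasmacytoid dendritic cells, 24 in CD8 T cells, 11 in CD4 T cells, 1 in regulatory T cells and 3 in NK cells. With the replicate block there were 17 in neutrophils, 5 in monocytes, 2 in conventional dendritic cells, 0 in plasmacytoid dendritic cells, 253 in CD8 T cells, 26 in CD4 T cells, 94 in regulatory T cells, 136 in gamma-delta T cells, 36 in NK cells and 68 in mast cells and basophils. Leaving out 1 library gave 6 to 277 in neutrophils, 2 to 177 in monocytes, 0 to 791 in macrophages, 3 to 132 in conventional dendritic cells, 0 to 107 in plasmacytoid dendritic cells, 25 to 346 in CD8 T cells, 63 to 100 in CD4 T cells, 41 to 95 in regulatory T cells, 32 to 398 in gamma-delta T cells, 6 to 218 in NK cells and 34 to 95 in mast cells and basophils; without either liproxstatin library macrophages had 0. With 1 library left in an arm, it is assumed to vary like the other group. The count of other glucocorticoid-inducible pairs called higher was 13, and 28 with DESeq2, 64 without the filter, 20 with doublets, 35 with the replicate block, and 21 to 78 leaving out a library. The count called lower was 2, and 1 with DESeq2, 7 without the filter, 1 with equal cells, 1 with the replicate block, and 1 to 12 leaving out a library.

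Counts of member pairs called between classes were 23 higher and 23 lower, and 22 to 23 and 19 to 22 leaving out a library. 1 level contrast reversed: Fkbp5 in neutrophils against the other classes, 0.44 with TMM (not called), was -0.66 (called) with library totals, an alternative chosen after seeing the data; the scale itself differs. Classes with a higher share of cells with a UMI in both liproxstatin libraries numbered 8 for Klf9, 0 for Zbtb16 and 1 for Nr3c1, and 5, 1 and 3 after thinning to 2000 UMIs. Of the 66 fitted member log2 fold changes with treatment, 12 turned sign under at least 1 alternative: 3 of Nr3c1, 2 each of Per1, Klf9, Ddit4 and Zbtb16, 1 of Fkbp5 and 0 of Tsc22d3. The cause of the other moved counts was not tested. Same-numbered libraries deviated together with r of -0.06 to 0.11 by class, and nothing in the labels pairs them. CD4 and gamma-delta T cells formed no Leiden cluster of their own, so that alternative gave no value there. Low UMI totals limit Zbtb16, Klf9 and Fkbp5 in the small classes.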

Other observations

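Outside the classes, cells with markers of more than 1 lineage had Tsc22d3 at 65.7 and 53.5 CPM in controls and 121 and 133 CPM with liproxstatin, and Per1 at 15.04 and 13.6 against 28.5 and 20.7 CPM. In cells of no gate Per1 measured 21.8 and 11.7 against 35.3 and 32.9 CPM and Klf9 10.8 and 15.1 against 28.6 and 29.5 CPM, while Nr3c1 measured 58.4 and 70.7 against 81.8 and 75.4 CPM.

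Detection of Tsc22d3 beside Klf9 was compared in cells thinned to 2000 UMIs. Among CD8 T cells with a Klf9 UMI, 58.1% of 43 and 51.4% of 35 in the liproxstatin libraries also had Tsc22d3, against 33.5% and 33.2% of cells without Klf9. In the controls only 5 and 7 CD8 T cells had a Klf9 UMI. Among monocytes of the liproxstatin libraries the shares were 27.5% of 69 and 22.6% of 62 with Klf9, and 24.4% and 23.7% without. These pairs were picked after their values were seen, and cells of 1 library are not replicates.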
